A study of Mus musculus with 7 samples.

Results

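The 41 genes described here encode neuronal and synaptic adhesion proteins: contactins, contactin-associated proteins, neurexins, neuroligins, the LRRTM, SLITRK, IgLON, DSCAM, CSMD and LRFN families, Lrp1b and alpha catenins. They were chosen by name from the 21887 protein-coding genes on the mouse chromosomes, with earlier results of these data known. Each of the 41 was placed against a deposited list of 1437 lamin-associated domains (LADs). LADs are the stretches of chromatin that lie at the protein layer under the nuclear envelope. The domains are taken to come from CUT&RUN for Lamin B1, a component of that layer, in mouse embryonic fibroblasts of the line called iMEF. The name of the list speaks of LADs and gives no antibody. CUT&RUN uses an antibody to bring a nuclease to chromatin and release the DNA around the target. The series has 7 libraries, made with antibodies to Lamin B1 (2), to H3K9me2 (2, a different antibody in each) and to H3K14ac (1) or with control IgG (2). The labels give no treatment and the single cell line name iMEF for all 7 libraries, while the series' design text speaks of several lines derived independently within a single mouse colony. Which line each library came from is not given in the sources used here, and the term wild type appears only in the file's name.

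The list gives the position of each domain and nothing else. It is named as merged, without saying over what, and holds no values of single libraries. No value below therefore has a replicate error or a known read depth, no test was run, and the counts are descriptions. RNA was not measured, so neither the fibroblast identity of the cells nor the activity of any gene could be checked. Borders step in units of about 2.5 kb. Positions are in mm10 and count from 1.

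Synaptic adhesion molecules span the cleft between nerve cells and hold the sending and the receiving side in register. Neurexins sit on the presynaptic side and bind neuroligins and LRRTM proteins on the postsynaptic side, while SLITRK and LRFN proteins are postsynaptic partners of presynaptic receptor phosphatases. Contactins, their associated proteins and the IgLON proteins act on axons and at the contacts between axons, glia and dendrites. Many of the genes are among the longest in the genome because of very large introns. Fibroblasts form no synapses.

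Of the 41 genes, 29 lay wholly inside 1 LAD (70.7%), 5 were cut by a border (12.2%) and 7 lay wholly outside (17.1%). Among all protein-coding genes, 21.8% lay wholly inside, 3.36% were cut and 74.9% lay outside. Summed over the 41 genes, which together measure 26.6 Mb, 95.6% of the gene length was in LADs, against 34.1% for all protein-coding genes. The gene that counted as inside with the least room was Cntn4, which ended 39.2 kb before its border, and the outside gene nearest to a LAD was Dscaml1, at 782.7 kb. No gene of the list thus lay just outside a domain.

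**Figure D1:**
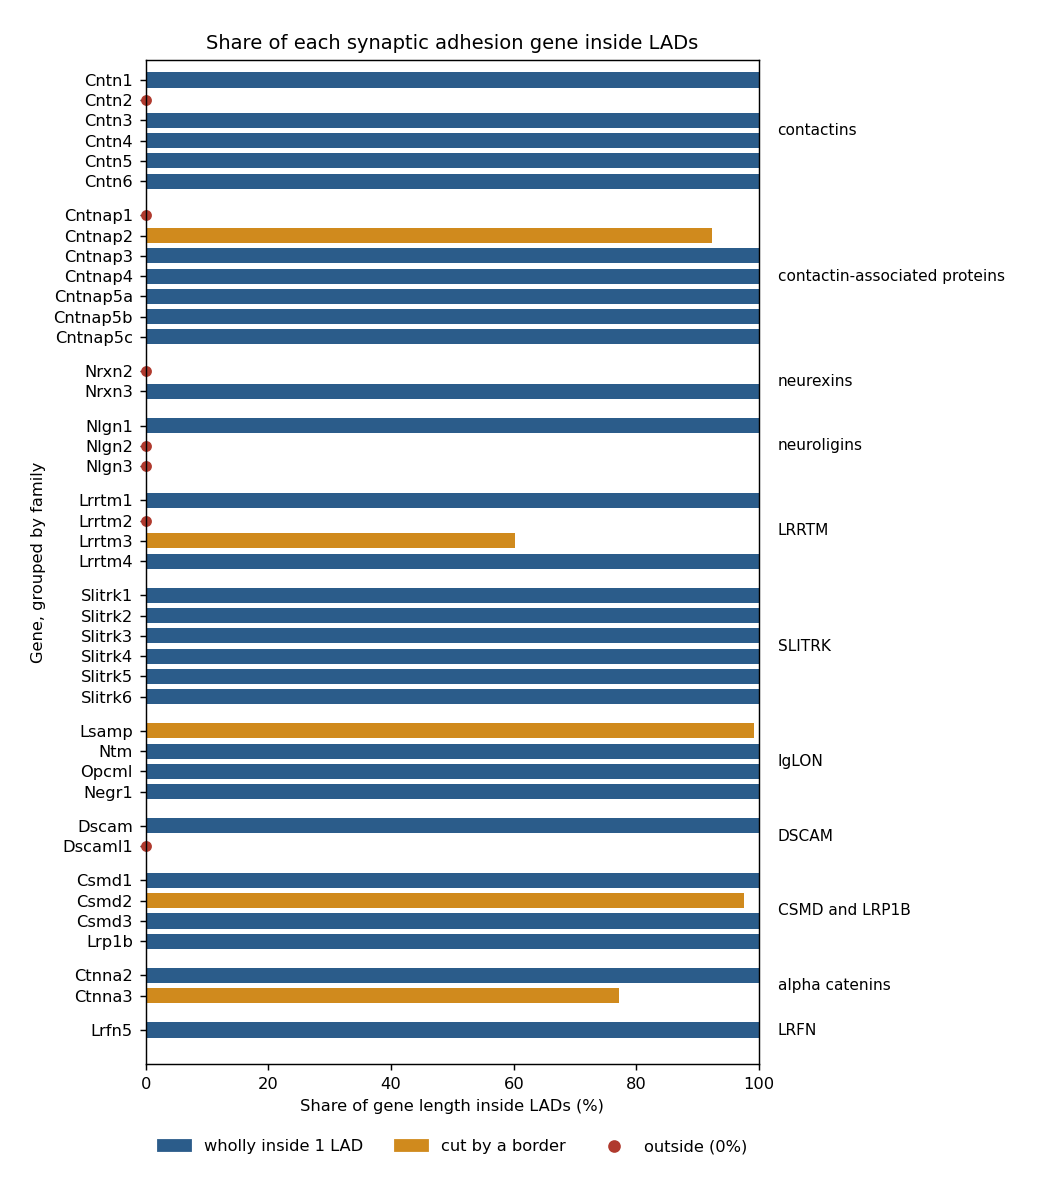
Share of the length of each gene inside LADs (horizontal axis, percent) for the 41 genes, grouped by family; blue bars are genes wholly inside 1 LAD, orange bars genes cut by a border, and red points genes at 0%. The 29 blue bars reach 100%, the 5 orange bars run from 60.2% to 99.1%, and the 7 red points are spread over 6 families, with none among the SLITRK, IgLON, CSMD and alpha catenin genes or Lrfn5.

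Among the contactins, immunoglobulin-type proteins anchored to the axon membrane, 5 of 6 genes lay wholly inside LADs. Cntn3 (chr6:102163304-102564614), Cntn6 (chr6:104492662-104863406) and Cntn4 (chr6:105677632-106700141) shared a single LAD of 5.82 Mb (chr6:100916828-106739309), the 16th longest of the list. These 3 genes took up 30.8% of it, and only 3 other protein-coding genes overlapped it. One of those was Chl1, which encodes a neural adhesion protein of the L1 type. Cntn5 was the only protein-coding gene to overlap its LAD of 3.90 Mb on chromosome 9. It measured 1271 kb and filled 32.6% of that domain. Cntn1 lay 911.4 kb from the border of a LAD of 3.62 Mb on chromosome 15.

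Cntn2, the contactin that forms part of the axonal complex beside the node of Ranvier, was the exception (chr1:132509425-132543251). It measured 33.8 kb, against 290.8 to 1271 kb for the other contactins, and lay 1682 kb from the nearest LAD.

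The contactin-associated proteins are neurexin-like receptors that pair with contactins. Here 5 of 7 genes lay wholly inside, 1 was cut and 1 lay outside. The mouse genes Cntnap5a, Cntnap5b and Cntnap5c are close relatives at separate sites, and each lay in a domain of its own: Cntnap5a 1670 kb deep in the longest LAD of the list (11.4 Mb, chromosome 1), Cntnap5b 1543 kb deep in the 7th longest (7.22 Mb, chromosome 1) and Cntnap5c 420.2 kb deep in a LAD of 1.62 Mb on chromosome 17. Cntnap4 lay 471.9 kb from the border of a LAD of 1.89 Mb on chromosome 8. Cntnap3 differed in its surroundings, since its LAD of 2.99 Mb on chromosome 13 overlapped 41 protein-coding genes.

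Cntnap1, which encodes the contactin partner at the axon-glia junction of myelinated fibres, lay outside (chr11:101174617-101190724). At 16.1 kb it was the shortest of its family, and its distance of 7280 kb to the nearest LAD was the largest of the 41 genes.

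Cntnap2 encodes the axonal receptor that helps to cluster potassium channels next to the node. It was the longest of the 41 genes, at 2241 kb (chr6:45060061-47301393), and 92.3% of it lay in a LAD of 3.64 Mb (chr6:43484510-47129498). The border ran through the gene 171.9 kb before its end. RefSeq lists 2 starts for this plus-strand gene, and they fell on opposite sides: the first, at 45060061, lay 1576 kb inside the domain, and the second, at 47244396, lay 114.9 kb beyond its border. Both windows of 300 bases (250 before and 50 after the start, RefSeq, GRCm38.p6) are shown because they are the starts of 1 gene on either side of a border, with CpG dinucleotides in capitals. The inside window (chr6:45059811-45060110) holds 14 CpGs and the outside window (chr6:47244146-47244445) holds 3.
Cntnap2 start 1, inside: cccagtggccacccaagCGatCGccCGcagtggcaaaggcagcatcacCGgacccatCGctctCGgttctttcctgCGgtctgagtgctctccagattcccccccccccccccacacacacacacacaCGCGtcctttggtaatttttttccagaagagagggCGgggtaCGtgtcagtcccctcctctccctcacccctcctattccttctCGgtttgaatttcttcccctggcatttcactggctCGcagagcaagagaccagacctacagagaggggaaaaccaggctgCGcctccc
Cntnap2 start 2, outside: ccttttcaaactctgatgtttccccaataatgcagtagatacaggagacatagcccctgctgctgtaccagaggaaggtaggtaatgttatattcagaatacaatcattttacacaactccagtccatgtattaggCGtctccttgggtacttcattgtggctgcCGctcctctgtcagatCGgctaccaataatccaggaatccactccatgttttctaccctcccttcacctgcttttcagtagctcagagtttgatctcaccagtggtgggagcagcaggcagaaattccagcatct

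The neurexins and neuroligins, the classic pair across the cleft, were divided within each family. Nrxn3 (chr12:88722701-90334935, 1612 kb) lay wholly inside a LAD of 4.29 Mb (chr12:87484968-91779953), 1238 kb from its border, and all 3 of its listed starts were inside. Nrxn2 (chr19:6418756-6533217, 114.5 kb) lay 1220 kb outside. Nlgn1, the neuroligin of excitatory synapses, was inside with 911.1 kb of length and filled 50.5% of a LAD of 1.80 Mb on chromosome 3. Nlgn2, the neuroligin of inhibitory synapses (chr11:69823123-69837784, 14.7 kb), lay 1263 kb outside. Nlgn3 (chrX:101299179-101321350, 22.2 kb) lay 1093 kb outside. In both families the long gene was thus the one in a LAD.

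The 6 SLITRK genes, which encode postsynaptic leucine-rich repeat proteins, all lay wholly inside although they are short, from 4.25 to 12.5 kb. Slitrk1 (chr14:108909988-108914239), Slitrk6 (chr14:110747338-110755204) and Slitrk5 (chr14:111675115-111683144) shared the second longest LAD of the list (chr14:105953486-115018457, 9.06 Mb). They took up 0.222% of its length, and Trim52 was the only other protein-coding gene to overlap it. Slitrk6 lay 4263 kb from the border, Slitrk5 3335 kb and Slitrk1 2957 kb, which were the largest depths among the 41 genes. Slitrk3 lay 2199 kb deep in a LAD of 4.62 Mb on chromosome 3. The 2 SLITRK genes of X lay in smaller domains, Slitrk2 220.2 kb from the border of a LAD of 1.29 Mb and Slitrk4 115.8 kb from the border of one of 0.477 Mb.

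Lrfn5, another postsynaptic leucine-rich repeat protein, lay 2240 kb deep in a LAD of 5.62 Mb on chromosome 12, which it shared with 2 other protein-coding genes.

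**Figure D2:**
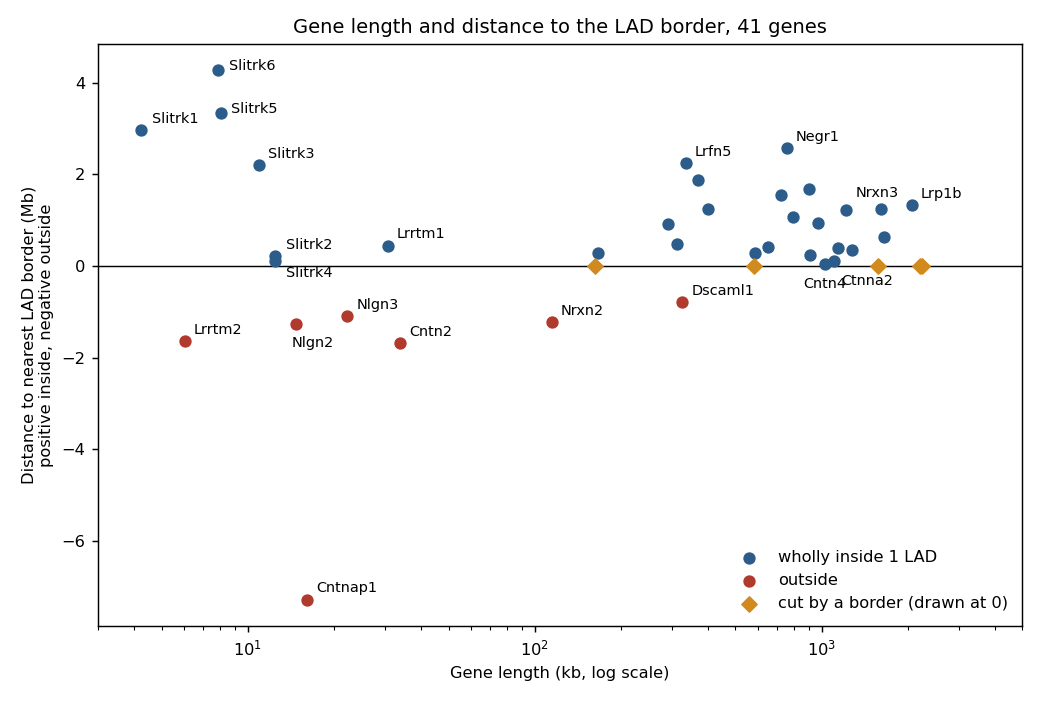
Distance from each gene to the nearest LAD border (vertical axis, Mb, positive inside and negative outside) against gene length (horizontal axis, kb, log scale) for the 41 genes, 1 point a gene, with the 5 cut genes drawn at 0. The 6 SLITRK genes are short and lie above the line, 4 of them between 2199 and 4263 kb deep and Slitrk4 and Slitrk2 close to it, at 115.8 and 220.2 kb; the outside genes reach no further right than Dscaml1 at 326.3 kb, and no gene of 500 kb or more lies below the line.

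The alpha catenins, which tie cadherins to the actin skeleton, and the LRRTM genes, whose proteins are postsynaptic receptors for neurexins, have to be read together. Lrrtm1 lies within Ctnna2, the neural alpha catenin, and Lrrtm3 within Ctnna3, the form known from heart muscle. Ctnna2 (chr6:76881637-77979815) and Lrrtm1 (chr6:77229210-77259915) were wholly inside a LAD of 5.09 Mb (chr6:76784405-81871888), together with Lrrtm4 (chr6:80018858-80810162), which lies further along the chromosome. The 3 genes covered 37.1% of that domain. Ctnna2 ended 97.2 kb from its border. The counts of these nested genes are therefore not independent.

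Ctnna3 (chr10:63430098-65003667, 1574 kb) was cut 5 times. Its first 170.8 kb lay outside, and the rest ran through 3 LADs (chr10:63600880-64025877, chr10:64098378-64763375 and chr10:64878376-66753369) separated by gaps of 72.5 and 115.0 kb, so that 77.2% of the gene was covered. The gap of 72.5 kb held the start of Lrrtm3 (chr10:63928497-64090255, minus strand). The first 64.4 kb of Lrrtm3 lay in that gap and its last 97.4 kb in the LAD, a coverage of 60.2%. Its start was 8.12 kb from the border of the next LAD, the shortest distance of any listed start of these genes. No other protein-coding gene overlapped either gap. The start windows below are shown as examples from outside, from the gap and from inside. The first start of Ctnna3, 170.8 kb outside (chr10:63429848-63430147), holds 39 CpGs, the start of Lrrtm3 in the gap (chr10:64090206-64090505, minus strand) holds 10, and the third start of Ctnna3, 204.8 kb inside (chr10:63820805-63821104), holds 2. The second start of Ctnna3, which is not printed, lay outside as well, 143.4 kb from the border, and holds 7. The start of Ctnna2, deep inside its LAD (chr6:77979618-77979917, minus strand), holds 38. CpGs are in capitals.
Ctnna3 start 1, outside: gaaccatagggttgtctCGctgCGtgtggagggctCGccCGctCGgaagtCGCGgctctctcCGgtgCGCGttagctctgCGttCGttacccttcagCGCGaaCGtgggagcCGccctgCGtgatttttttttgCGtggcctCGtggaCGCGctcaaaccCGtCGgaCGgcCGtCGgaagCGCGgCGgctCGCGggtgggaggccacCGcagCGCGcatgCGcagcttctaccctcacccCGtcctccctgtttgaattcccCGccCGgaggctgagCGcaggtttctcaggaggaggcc
Lrrtm3, in the gap: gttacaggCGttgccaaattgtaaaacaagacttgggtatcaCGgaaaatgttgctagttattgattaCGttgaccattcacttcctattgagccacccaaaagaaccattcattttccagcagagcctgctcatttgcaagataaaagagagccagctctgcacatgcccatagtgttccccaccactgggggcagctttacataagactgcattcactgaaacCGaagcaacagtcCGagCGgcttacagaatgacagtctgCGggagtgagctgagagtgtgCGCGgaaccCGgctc
Ctnna3 start 3, inside: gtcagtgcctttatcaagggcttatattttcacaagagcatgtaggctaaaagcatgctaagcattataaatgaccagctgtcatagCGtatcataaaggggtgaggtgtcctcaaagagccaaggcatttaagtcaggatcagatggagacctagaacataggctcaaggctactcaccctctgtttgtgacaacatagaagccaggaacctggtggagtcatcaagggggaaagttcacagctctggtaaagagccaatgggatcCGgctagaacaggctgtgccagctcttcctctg
Ctnna2, inside: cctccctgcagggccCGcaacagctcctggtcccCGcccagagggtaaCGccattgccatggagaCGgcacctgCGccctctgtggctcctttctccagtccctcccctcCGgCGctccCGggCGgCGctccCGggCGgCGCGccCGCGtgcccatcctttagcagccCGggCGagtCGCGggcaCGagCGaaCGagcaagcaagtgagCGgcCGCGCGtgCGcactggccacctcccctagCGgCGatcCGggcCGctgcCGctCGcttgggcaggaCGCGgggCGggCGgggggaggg

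The CpG-rich windows of Ctnna3 and Ctnna2 thus lay on opposite sides of LAD borders, with 39 and 38 CpGs in 300 bases.

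**Figure D3:**
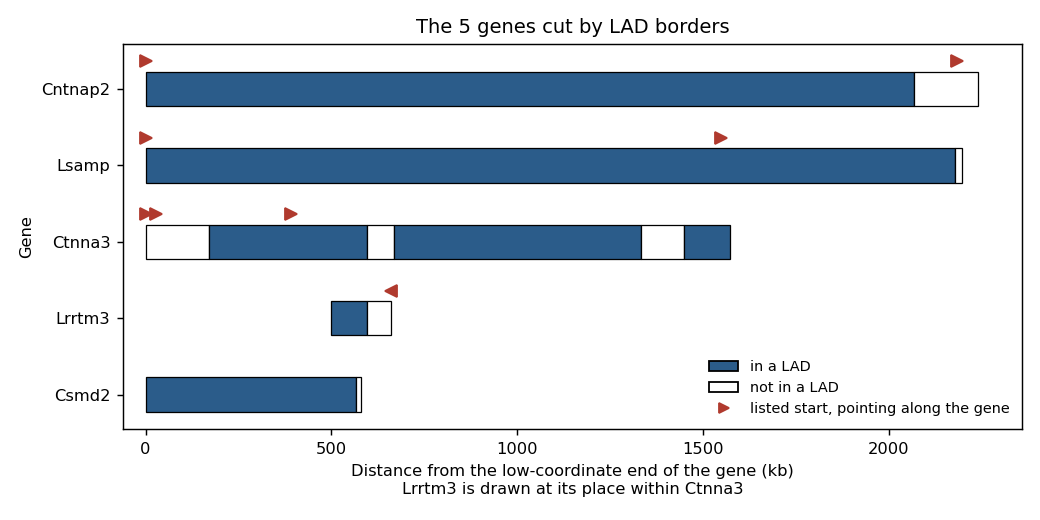
The 5 genes cut by LAD borders, drawn to scale along the distance from their low-coordinate end (horizontal axis, kb), with Lrrtm3 at its place within Ctnna3; blue stretches lie in a LAD, white stretches do not, and red arrowheads mark listed starts. Csmd2 has none drawn. Cntnap2, Lsamp and Csmd2 leave their LAD near 1 end, whereas Ctnna3 has white stretches of 170.8, 72.5 and 115.0 kb, and the arrowhead of Lrrtm3 stands over the stretch of 72.5 kb.

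The IgLON proteins are small immunoglobulin-type proteins on the neuronal surface. Opcml (chr9:27790716-28925410) and Ntm (chr9:28994749-29963269) are neighbours and shared a LAD of 3.51 Mb (chr9:27393999-30908987), of which they made up 59.8%. Negr1 lay 2577 kb deep in the 8th longest LAD (7.06 Mb, chromosome 3). Lsamp (chr16:39984254-42181679, 2197 kb) lay in a LAD of 3.24 Mb (chr16:38917045-42162033) for 99.1% of its length, and only its last 19.6 kb lay beyond the border. Both listed starts of Lsamp were inside.

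Of the remaining families, Dscam, a homophilic receptor that keeps sister branches apart, lay 278.2 kb inside a LAD of 1.23 Mb on chromosome 16. Its relative Dscaml1 (chr9:45427433-45753713) lay outside. Csmd1 (chr8:15892538-17535385, 1643 kb) filled 50.2% of a LAD of 3.27 Mb (chr8:15255660-18530649), 636.9 kb from the border. Csmd3 lay 1213 kb deep in a LAD of 5.15 Mb on chromosome 15 with 1 other protein-coding gene, the potassium channel gene Kcnv1. Csmd2 (chr4:127986505-128567660) was in a LAD of 1.165 Mb (chr4:127388021-128553016) for 97.5% of its length, and the border left out 14.6 kb at its high-coordinate end. These are large transmembrane proteins with CUB and sushi domains. Lrp1b, a large receptor of the LDL receptor family (chr2:40595290-42653598, 2058 kb), lay 1318 kb deep in a LAD of 5.01 Mb (chr2:39277287-44287270) and filled 41.1% of it.

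The 7 outside genes were the shorter ones of their families. In the 6 families whose listed genes lay both outside and in LADs, each outside gene was shorter than each gene inside or cut. The outside gene not yet described, Lrrtm2 (chr18:35209003-35215024, 6.02 kb), lay 1639 kb from the nearest LAD, against lengths of 30.7 to 791.3 kb for the other LRRTM genes. It lies within Ctnna1, the widely expressed alpha catenin and no member of the list, which was also outside, at 1599 kb. Each LRRTM gene nested in an alpha catenin gene was thus placed like its host, which the nesting itself forces for the pair inside and the pair outside but not for Lrrtm3 and Ctnna3.

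The genes were next divided by length. Of the 20 listed genes of 500 kb and over, 16 lay wholly inside, 4 were cut and none lay outside. Among all 227 protein-coding genes of that length, 46.3% lay wholly inside, 34.8% were cut and 18.9% lay outside. In the class from 100 to 500 kb, 6 of 9 listed genes were wholly inside, against 19.4% of all genes. From 20 to 100 kb, 1 of 3 was inside, against 14.7%. Under 20 kb, 6 of 9 were inside, against 26.3%, and these 6 were the SLITRK genes. Without the SLITRK genes, 1 of 6 listed genes under 100 kb lay inside (16.7%), namely Lrrtm1, which is near the 21.7% of all genes under 100 kb. The 11 listed genes of at least 1 Mb were 8 inside and 3 cut, and of all 59 such genes 34 were inside and 23 cut.

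**Figure D4:**
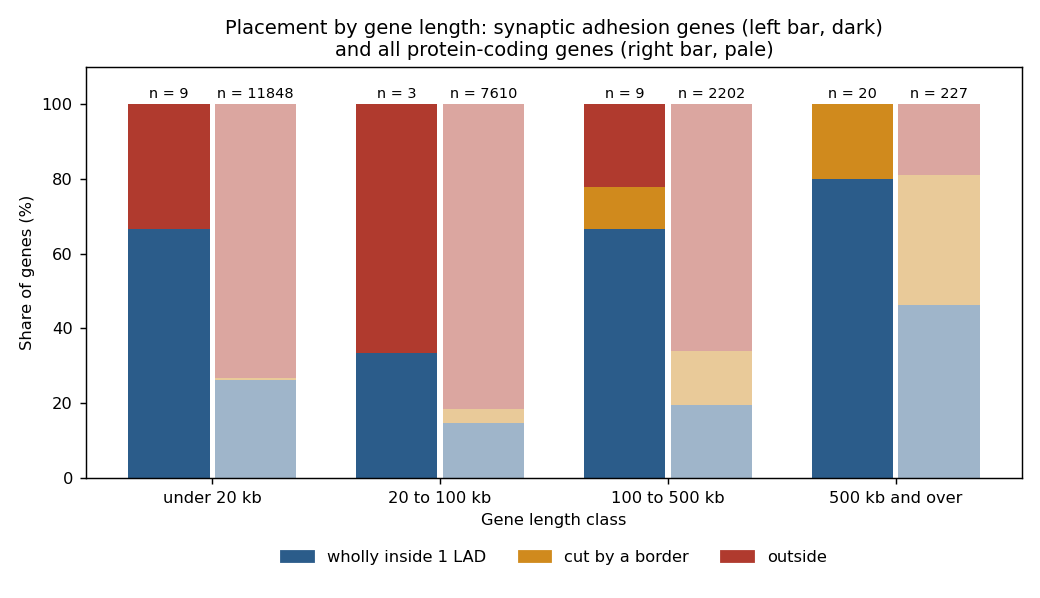
Share of genes (vertical axis, percent) wholly inside a LAD, cut by a border or outside, in 4 classes of gene length (horizontal axis), for the 41 listed genes (left, dark bars) and all protein-coding genes (right, pale bars), with the number of genes above each bar. The dark bars at 500 kb and over show 80.0% inside and no gene outside, and the pale bar beside them shows 46.3% inside.

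The domains that held these genes were long. The 34 genes inside or cut touched 28 LADs, with a median length of 3.57 Mb, while the median of the list was 0.445 Mb. Taken over genes wholly inside, the median length of the LAD was 5.01 Mb for the listed genes and 1.88 Mb for all protein-coding genes. For genes of 500 kb and over, it was 4.65 Mb for the listed genes and 2.87 Mb for all. Of the 28, 25 measured at least 1 Mb (30.3% of the list did), and 18 were among the 100 longest. A long gene can lie wholly only in a domain longer than itself, so these lengths are in part set by the genes. The SLITRK genes, to which this does not apply, were in domains of 0.477 to 9.06 Mb. For the genes wholly inside, the median depth was 945.7 kb, against 323.9 kb for all protein-coding genes wholly inside LADs. Among those of 500 kb and over, it was 791.3 kb for the listed genes and 328.1 kb for all.

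Their surroundings held few genes. Within the gene and 500 kb on either side, the 29 inside genes had a median of 1 other protein-coding gene (range 0 to 14), and 10 of them had none, namely Cntn3, Cntn6, Cntnap4, Cntnap5a, Csmd3, Lrp1b, Lrfn5 and the 3 SLITRK genes of chromosome 14. Of all 4764 protein-coding genes inside LADs, 105 had none (2.2%), and of the 105 inside genes of 500 kb and over 13 had none (12.4%), against 3 of the 16 listed genes of that length. The 7 outside genes had a median of 26 (range 13 to 64), with the most around Nlgn2 and the fewest around Cntn2. The ranges met only through Cntnap3, with 14 neighbours. For all protein-coding genes the medians were 13 inside and 17 outside, and without olfactory and vomeronasal receptor genes, which lie in dense clusters, 9 and 17. Among inside genes of 500 kb and over, the median was 2 for the listed genes and 3 for all.

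RefSeq start windows matched 28 of the 41 genes, with 42 listed starts. Taking for each gene the listed start nearest to its outer 5′ end, 24 of 28 lay in a LAD, against 23.9% of all 17492 protein-coding genes with a listed start. The 4 others were Cntn2, Nlgn2, Ctnna3 and Lrrtm3. The start used lay 549.8 kb downstream of the outer 5′ end of the annotated gene for Ntm, 441.1 kb for Cntn4, 99.9 kb for Cntn3, 71.8 kb for Nrxn3 and 13.3 kb for Lrrtm1, and at most 0.957 kb for the other genes, so the composition of those 5 genes may not be that of their outermost start. Of 11 genes with more than 1 listed start, only Cntnap2 and Ctnna3 had starts on both sides of a border. Csmd1, Csmd2, Csmd3, Lrp1b, Cntnap1, Cntnap4, Cntnap5a, Cntnap5c, Nrxn2, Nlgn3, Lrrtm2, Slitrk4 and Dscaml1 had no entry.

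The base composition of these windows varied widely within LADs. CpG content was expressed as the observed number over that expected from the C and G content. For the 24 starts inside, its median was 0.511 (range 0 to 0.937), and the median GC content was 55.5%. All 4180 protein-coding starts inside LADs had medians of 0.188 and 44.7%, and without olfactory and vomeronasal receptor genes 0.246 and 48.3%. Starts outside LADs had medians of 0.689 and 59.0% over all 13312 genes, and the 4 outside starts of the list ranged from 0.479 (Cntn2) to 1.16 (Ctnna3). A ratio of at least 0.6 was found in 9 of the 24 inside starts of the list (37.5%), in 15.3% of all starts inside (20.9% without olfactory and vomeronasal receptor genes) and in 58.8% of all starts outside. Counting any listed start inside a LAD, 12 of the 24 genes (50%) had such a ratio, since the second starts of Ntm (0.818), Slitrk2 (0.709) and Cntn4 (0.640) were added, against 16.6% of all genes with an inside main start. Lrfn5 (0.937), Ctnna2 (0.895), Negr1 (0.881), Slitrk5 (0.868) and Cntn5 (0.858) were the highest.

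Starts within a shared LAD were compared next. In the domain of the 3 SLITRK genes of chromosome 14, the ratio was 0.868 for Slitrk5, 0.671 for Slitrk1 and 0.364 for Slitrk6, with GC contents of 74.3%, 42.3% and 38.3%. In the domain of the 3 contactins of chromosome 6, it was 0.264 for Cntn4 and 0.254 for Cntn6, with 4 CpGs each, and Cntn3 had no CpG. The windows of Cntn3 and Cntn4 lie 99.9 and 441.1 kb downstream of the outer 5′ ends of these genes. They may therefore not show the composition of the outermost starts. The second listed start of Cntn4, in the same domain, had 12 CpGs and a ratio of 0.640. Slitrk5 (chr14:111675777-111676076, plus strand, 35 CpGs) and Cntn3 (chr6:102464618-102464917, minus strand, 0 CpGs) are shown as the extremes in CpG number among starts of genes that share a LAD with 2 other genes of the list, apart from Ctnna2 above, with CpGs in capitals.
Slitrk5, inside: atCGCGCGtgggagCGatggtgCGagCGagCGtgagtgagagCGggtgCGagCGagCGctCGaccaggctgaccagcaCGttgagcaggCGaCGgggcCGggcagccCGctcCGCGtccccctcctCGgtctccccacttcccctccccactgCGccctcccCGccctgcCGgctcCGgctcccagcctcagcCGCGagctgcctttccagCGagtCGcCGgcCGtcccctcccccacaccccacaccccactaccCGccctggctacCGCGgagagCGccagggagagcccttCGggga
Cntn3, inside: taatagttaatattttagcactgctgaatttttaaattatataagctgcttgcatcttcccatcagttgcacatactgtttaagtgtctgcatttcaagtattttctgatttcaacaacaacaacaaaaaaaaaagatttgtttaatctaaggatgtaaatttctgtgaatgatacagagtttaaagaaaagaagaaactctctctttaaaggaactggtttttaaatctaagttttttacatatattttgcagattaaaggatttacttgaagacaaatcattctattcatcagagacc

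**Figure D5:**
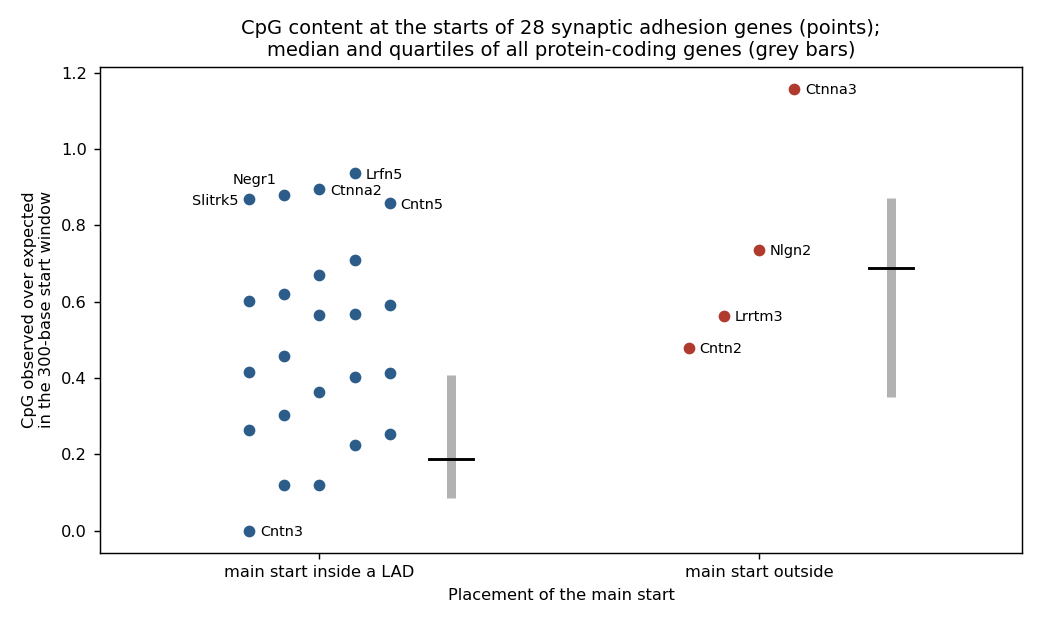
CpG observed over expected in the 300 bases around the main start (vertical axis) of 28 genes, 1 point a gene, by placement of the start (horizontal axis); points are spread sideways only for legibility, and grey bars with a black line give the quartiles and median of all protein-coding genes. The 24 inside points run from 0 to 0.937 around a median of 0.511, above the grey median of 0.188, and the 4 outside points lie on both sides of the grey median of 0.689.

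Short motifs were searched in the main start windows on both strands. GGGCGG, the GC box, itself holds a CpG and so overlaps the measure above; it was in 7 of the 24 inside starts (29.2%), against 18.3% of all starts inside and 55.1% of all outside. TATAAA was in 2 of 24 (8.33%), Cntnap3 and Lrrtm4, against 25.6% of all starts inside and 9.51% of all outside. Olfactory and vomeronasal receptor genes were kept in these shares over all starts. TCAGCACC, part of the site of the neuronal silencing factor REST, was in 1 of 24, Cntnap5b, and in 1.62% of all main start windows. It was also in the second listed starts of Lsamp and Nlgn1, both inside. Later listed starts inside LADs also held TATAAA (Cntn1 and Ctnna3) and GGGCGG (Cntn5, Nrxn3, Ntm and Slitrk2). Motifs in later starts were not counted over all genes, so these hits have no share to set beside them.

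Other synaptic genes were placed for comparison. The 68 genes were those of presynaptic receptors, bridging proteins, other adhesion families, postsynaptic scaffolds and paralogs of the families above. Of these, 13 lay wholly inside (19.1%, near the 21.8% of all protein-coding genes). A further 9 were cut (13.2%, against 3.36%) and 46 lay outside (67.6%, against 74.9%). LADs covered 65.3% of their summed length, against 34.1% for all genes. Inside lay 5 of 10 genes of the L1, NCAM and SynCAM group (Chl1, Nrcam, Ncam2, Cadm1 and Cadm3), 3 of 9 presynaptic receptor genes and partners (Ptprd, Il1rapl2 and Mdga2) and 3 of 16 genes for secreted and bridging proteins (Cbln2, Cbln4 and Clstn2). Ptprd, which encodes a receptor phosphatase bound by SLITRK proteins, measured 2271 kb and lay 1661 kb deep, while its relatives Ptprs and Ptprf lay outside at 64.1 and 83.2 kb of length. Of the 10 latrophilin, teneurin and FLRT genes, 1 lay inside (Flrt3) and 5 were cut, including all 4 teneurin genes, whose coverage ran from 32.6% (Tenm3) to 97.8% (Tenm4). None of the 15 scaffold genes lay inside, and Dlg2 (97.4% covered) and Dlgap1 (78.9%) were cut. Of the 8 paralogs of listed genes that are not in the list, 1 lay inside and 7 outside (87.5%, against 74.9% of all genes). Of the 4 other LRFN genes, Lrfn2 lay inside and Lrfn1, Lrfn3 and Lrfn4 outside, and Iglon5 was outside.

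By length, of the 14 other synaptic genes of 500 kb and over, 4 lay inside (28.6%, against 46.3% of all genes of that length). A further 8 were cut (57.1%, against 34.8%), and 2, Adgrl3 and Dlgap2, lay outside (14.3%, against 18.9%). Of the 38 under 100 kb, 4 lay inside (10.5%, against 21.7% of all). Of 20 genes for cell-matrix and general adhesion, such as integrins, vinculin (Vcl) and talin (Tln1), 18 lay outside, Itga2 was cut and Itga1 lay inside, 92.6 kb from a border. Of all protein-coding genes, 74.9% lay outside.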

How the data were processed

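CUT&RUN libraries of iMEF fibroblasts (500000 cells per reaction, antibody diluted 1 to 100, or 1 to 50 for IgG, 2 hours of digestion in 2 mM calcium chloride) were made per the labels' protocols. Bowtie2 and mm10 are named in the submitters' processing notes, without a role. The authors deposited 1 merged list of domains, which gives the start and end of each in base pairs. The domain caller, its threshold and the use of IgG are not given in the sources used here, and single libraries were not analysed here. The smallest gap between domains was 52499 bp; whether closer domains were joined is not given in the sources used here. That the list rests on Lamin B1 was inferred from the word LAD in its name, which gives no antibody. What was merged is not given.

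Gene and start positions came from RefSeq tables of GRCm38.p6, the same build. All 41 symbols matched. A gene was inside if 1 LAD held all of it, cut if LADs held part of it, and otherwise outside; distances run from the nearer gene end to the border. The code (Python 3.11.15, pandas 2.3.3) was tested on simulated data. The genes and comparison lists were chosen with earlier results of these data known. Coordinates were given for genes cut, outside, within 100 kb of a border or sharing a LAD and for the 5 longest. The other genes are given by depth or domain length. The start windows printed were picked after their values were seen.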

Additional observations from a re-analysis of the deposited data

How the results depend on the processing

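Of 60 counts and shares recomputed, 57 stayed within 1.5 times the reported count or, for the covered share, within a binomial interval over 41 genes. That interval served only as a tolerance, since a share of summed length is not a count over independent genes. Of the 60, 1 (any listed start in place of the main one) was chosen after seeing the data. Under the 8 changes to the list, the genes wholly inside numbered 27 (without X) to 32 and the covered share was 93.6% to 97.0%. Moving each border outward by 50 kb lowered the cut genes from 5 to 2, since Lrrtm3, Lsamp and Csmd2 came inside, and raised the general adhesion genes inside from 1 to 3; joining LADs separated by at most 250 kb raised the latter to 4. Moving borders inward by 50 kb cut Cntn4. With LADs of at least 500 kb only, Lrrtm3 and Slitrk4 counted as outside. Shifts of 2.5 kb and a minimum of 100 kb changed the placement of none of the 41 genes. No paired analysis was possible because the list is merged and holds no values of single libraries. Leaving out a replicate was not run for that reason. The read depth is unknown, so how many short gaps such as that at Lrrtm3 a deeper library would keep was not tested.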

Other observations

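The domains of these genes also held other gene groups. The LAD of Cntnap5a on chromosome 1 held 12 serpin genes and the cadherin genes Cdh7 and Cdh19 among its 17 protein-coding genes. The LAD of Ctnna2, Lrrtm1 and Lrrtm4 held 6 Reg genes, which encode small secreted lectins of pancreas and gut, among its 10. The LAD of Dscam overlapped 7 protein-coding genes, including Bace2 and Pcp4. The LAD of Nrxn3 overlapped 25, whereas 4 domains of more than 3 Mb, those of Cntn5, Csmd1, Csmd3 and Cntnap2, overlapped no more than 2 each.

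MicroRNA genes lay within 3 of the listed genes: Mir6237 within Cntn5, Mir3106 within Csmd1 and Mir6336 within Lrp1b. Each host lay wholly inside a LAD, so each microRNA gene did too.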
